A study of Mus musculus with 15 samples.

Results

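DNA methylation writers and erasers, the enzymes that place or remove methyl groups on cytosine together with 3 partner proteins, were followed across 12 mouse medulloblastomas and 3 normal cerebella. The 9 genes named were Dnmt1, Dnmt3a, Dnmt3b, Uhrf1, Tet1, Tet2, Tet3, Mbd2 and Hells. A probe belonged to one of them if its RefSeq transcript accession was listed for that gene. In this way 7 of the 9 genes were matched through 11 probes, of 17158 gene symbols and 41098 probes kept on the array. Tet1 and Tet3 had no matched probe and were not analysed here. Members were taken by gene name, with no threshold on a measured value.

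Cytosine methylation at CpG sites is placed on unmarked DNA by Dnmt3a and Dnmt3b and copied onto the new strand after replication by Dnmt1, which Uhrf1 recruits to hemimethylated sites. Hells is a chromatin remodeller needed for normal methylation of repeated DNA, and Mbd2 binds methylated CpG sites and brings in the NuRD repressor complex. Tet2 starts the removal of the mark by oxidising methylcytosine. In the developing cerebellum, granule neuron precursors divide under sonic hedgehog signalling before they mature into neurons, and loss of the restraining receptor Ptch1 is a known cause of medulloblastoma.

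Each sample was hybridised to 1 one-colour Agilent array. All 12 tumours came from Ptch1+/- mice, which carry 1 working copy of the receptor gene in the whole body, of C3B6F1 background. Each tumour is labelled S-type or R-type, and what the letters stand for is not given. In the S-type, MB1 to MB3 arose without X-rays and MB4 to MB6 after 0.2 Gy. In the R-type, MB7 to MB9 arose after 0.2 Gy and MB10 to MB12 after 1.5 Gy, so that there were 3 tumours in each of 4 groups. X-rays were given on postnatal day 1, and the mice were killed when moribund. The 3 normal cerebella were from mice without irradiation, and their strain and genotype are not given in the sources used here. Ages, whose unit is not stated, were 103 to 113 in normal cerebellum. They were 160 to 173 (no X-rays) and 128 to 135 (0.2 Gy) for S-type tumours, and 106 to 127 (0.2 Gy) and 87 to 103 (1.5 Gy) for R-type tumours. Since the ages of S-type and R-type tumours did not overlap, type and age cannot be told apart. MB6 came from a male and every other sample from a female.

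Between 59.1% and 66.5% of probes were well above background on each array, and the 75th percentile of the signal lay between 1184 and 1611. Log2 signals correlated at 0.971 to 0.9891 between tumours, at 0.9903 to 0.9910 between normal cerebella and at 0.8801 to 0.9155 between tissues, across probes. The tissue labels were checked against markers. All 6 Purkinje cell markers and all 7 mature granule neuron markers were lower in tumours than in normal cerebellum, with median log2 changes of −6.16 and −6.35, whereas 7 of 10 granule precursor markers were higher and 1 was lower, with a median of 4.51. All 5 tested microglia and macrophage markers were higher, with a median of 2.82. Of 6 astrocyte and Bergmann glia markers 5 were lower, as were 5 of 6 oligodendrocyte markers. Among all tested genes 43.5% were higher and 35.4% lower. In tissue of mixed cells, fewer cells of a type and less RNA per cell cannot be told apart, and this holds for every difference between tumour and normal tissue given here.

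Levels are given as log2 of the processed signal minus the 75th percentile of that array, so that 0 is the signal of a probe at that percentile. A change is a difference between such levels, and 1 unit is a doubling. Levels of different probes are not comparable with each other. Changes were tested with limma over 21657 genes or unnamed probes, with Benjamini-Hochberg adjustment over all of them, and were called at an adjusted p under 0.05. Where nothing says otherwise the value is that of the brightest probe of the gene.

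On the brightest probe of each gene, Uhrf1 and Hells differed most between tumour and normal tissue, followed by Dnmt1 and Dnmt3b, whose 95% intervals (1.60 to 1.96 and 1.35 to 1.94) overlapped. In tumours against normal cerebellum, 5 of the 7 measured genes (Dnmt1, Uhrf1, Hells, Dnmt3b and Tet2) were higher and none was lower, and their median change was 1.64. Among all 21657 tested genes 78.9% were called, 43.5% as higher and 35.4% as lower, with a median change of 0.136. A call in this comparison was therefore common, and the count of 5 of 7 is to be read against that share. Of the 5, Uhrf1 needed tumour arrays to pass a filter on signal above background, so the filter shaped its call. Between the tumour types 2 of the 7 genes were called, against 21% of all tested genes. Tet2 and the brightest Dnmt3a probe were lower in R-type tumours, whereas Dnmt3a probe A_52_P30497 was higher (0.36, limma adjusted p = 0.00357). None of the maintenance genes was called. A missing call does not show that their levels are equal.

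Because the sequences around the starts of the maintenance genes hold matches to a replication-linked motif, they are shown before the values. E2F factors, which drive genes of DNA replication, bind sequences of the form TTTCCCGC, TTTCGCGC, TTTGGCGC or TTTGCCGC. These 4 words were searched on both strands in the 300 bases that run from 250 before to 50 after each annotated gene start in RefSeq, build GRCm38.p6. Of 32851 such windows of all genes, 744 (2.26%) held at least 1 match. Each of the words contains a CpG site, and the share among windows equally rich in CpG sites was not taken. Of the windows in the RefSeq table, 13 for 8 of the 9 genes were looked at, and 3 of these had a match, 1 each in Hells, Uhrf1 and Dnmt1. Mbd2 was left out of this step, so whether it has a match is not given here. A match is a string of letters and no evidence of binding, and the 3 genes were not tested as a set. Matches are in capitals, and all sequences run 5′ to 3′ along the gene.
Hells, chr19:38930740-38931039, + strand: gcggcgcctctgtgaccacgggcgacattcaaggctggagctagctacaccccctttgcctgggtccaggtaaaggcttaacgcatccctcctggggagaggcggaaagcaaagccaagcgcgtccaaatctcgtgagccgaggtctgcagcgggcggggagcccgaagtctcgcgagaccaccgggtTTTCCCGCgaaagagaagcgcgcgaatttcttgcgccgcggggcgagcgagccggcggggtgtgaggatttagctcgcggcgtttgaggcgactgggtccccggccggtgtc
Uhrf1, chr17:56304063-56304362, + strand: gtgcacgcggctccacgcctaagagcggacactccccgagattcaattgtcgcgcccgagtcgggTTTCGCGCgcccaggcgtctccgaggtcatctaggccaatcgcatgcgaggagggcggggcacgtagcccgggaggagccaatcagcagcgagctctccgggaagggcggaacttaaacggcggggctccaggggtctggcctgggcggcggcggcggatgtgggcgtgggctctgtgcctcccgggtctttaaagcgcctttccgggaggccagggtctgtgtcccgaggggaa
Dnmt1, 30 bases around the first match in chr9:20952574-20952873, − strand: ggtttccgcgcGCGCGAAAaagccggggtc
Dnmt1, 28 bases around the second match in that window: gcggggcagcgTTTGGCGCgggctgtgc

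The Hells match began 62 bases before the gene start and the Uhrf1 match 185 bases before it. The Dnmt1 matches began 219 bases before and 33 bases after the start of that window's transcript, and Dnmt1 has 2 further annotated starts in the table, whose windows held none. Uhrf1 has 1 further start, with 12 CpG sites and no match in its window (chr17:56303087-56303386). The 3 windows with a match were rich in CpG sites, with 34 for Hells, 33 for Uhrf1 and 33 for Dnmt1, against a median of 7 over all windows. The windows of Dnmt3b (30 CpG sites), Tet2 (57) and the 3 starts of Dnmt3a held no match, which says only that these letters are not in those windows.

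Uhrf1, the factor that brings Dnmt1 to replicated DNA, had the largest change of the 7 genes. Its level on probe A_52_P314705 was −6.37, −5.62 and −4.73 in the 3 normal cerebella and was well above background in 1 of them. It was 3.61, 3.21 and 3.70 in S-type tumours at 0 Gy and 3.79, 3.53 and 3.40 in S-type tumours at 0.2 Gy. In R-type tumours it was 3.70, 3.94 and 3.87 at 0.2 Gy and 3.86, 3.94 and 3.82 at 1.5 Gy. Every tumour lay far above every normal cerebellum, and the ranges of S-type tumours (3.21 to 3.79) and R-type tumours (3.70 to 3.94) overlapped.

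The fitted change of Uhrf1 was 9.27 (SE 0.242). Since the normal tissue was near background, the measured means of 3.70 and −5.57 give the change only as a bound: with each normal array raised to its lowest signal well above background, the level was at least 506-fold higher in tumours. A second probe, A_51_P491742, was not well above background in any of the 3 normal cerebella, with a mean of −5.96 against 3.10 in tumours. Its level was at least 393-fold higher in tumours. It entered the fit only through the tumours, so this change is given with no test. The first probe also needed tumour arrays to pass the filter on background, so its change is likewise given with no test. Both probes thus place Uhrf1 near or below background in normal cerebellum and among clearly detected genes in every tumour.

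Dnmt1, the maintenance methyltransferase itself, was present in both tissues. Its levels in normal cerebellum were 1.32, 1.26 and 1.48. S-type tumours had 3.07, 2.91 and 3.19 at 0 Gy and 3.23, 3.07 and 3.02 at 0.2 Gy, and R-type tumours had 2.98, 3.29 and 3.12 at 0.2 Gy and 3.27, 3.25 and 3.17 at 1.5 Gy. The tumours spanned 2.91 to 3.29, a narrow range that did not reach the normal values. The change was 1.78 (SE 0.0823, n = 12 against 3, limma adjusted p = 1.17e-09), or 3.43-fold.

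Hells, the chromatin remodeller, was detected in all 3 normal cerebella but spread widely there, at −4.35, −2.81 and −3.90. Its levels were 0.89, 0.24 and 0.81 in S-type tumours at 0 Gy and 0.78, 0.62 and 0.57 at 0.2 Gy. In R-type tumours they were 0.79, 1.05 and 0.92 at 0.2 Gy and 0.91, 1.11 and 1.09 at 1.5 Gy. MB2, a tumour of a mouse without irradiation, was the lowest tumour for Hells, Uhrf1 and Dnmt1, and remained far above the normal tissue in each. Hells was 22.7-fold higher in tumours (log2 change 4.51, SE 0.241, limma adjusted p = 4.16e-09).

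Dnmt3b, a de novo methyltransferase used mainly in early development, was low in normal cerebellum, at −3.03, −3.22 and −2.92. S-type tumours had −1.36, −1.61 and −1.73 at 0 Gy and −1.52, −1.53 and −1.05 at 0.2 Gy, and R-type tumours had −1.19, −1.43 and −1.22 at 0.2 Gy and −1.12, −1.66 and −1.53 at 1.5 Gy. Every tumour was above every normal sample, while the tumour groups were mixed. The change was 1.64 (SE 0.135, limma adjusted p = 2.1e-07), or 3.12-fold.

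Mbd2, the reader that links methylated DNA to the NuRD complex, gave no call. Its 3 normal levels were −0.03, 0.14 and 0.05, and the 12 tumours ranged from −0.09 to 0.30 with a median of 0.13, so that all groups overlapped. The difference of 0.08 had a 95% interval from −0.10 to 0.25 (limma adjusted p = 0.4). The interval does not show that the levels are equal.

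**Figure D1:**
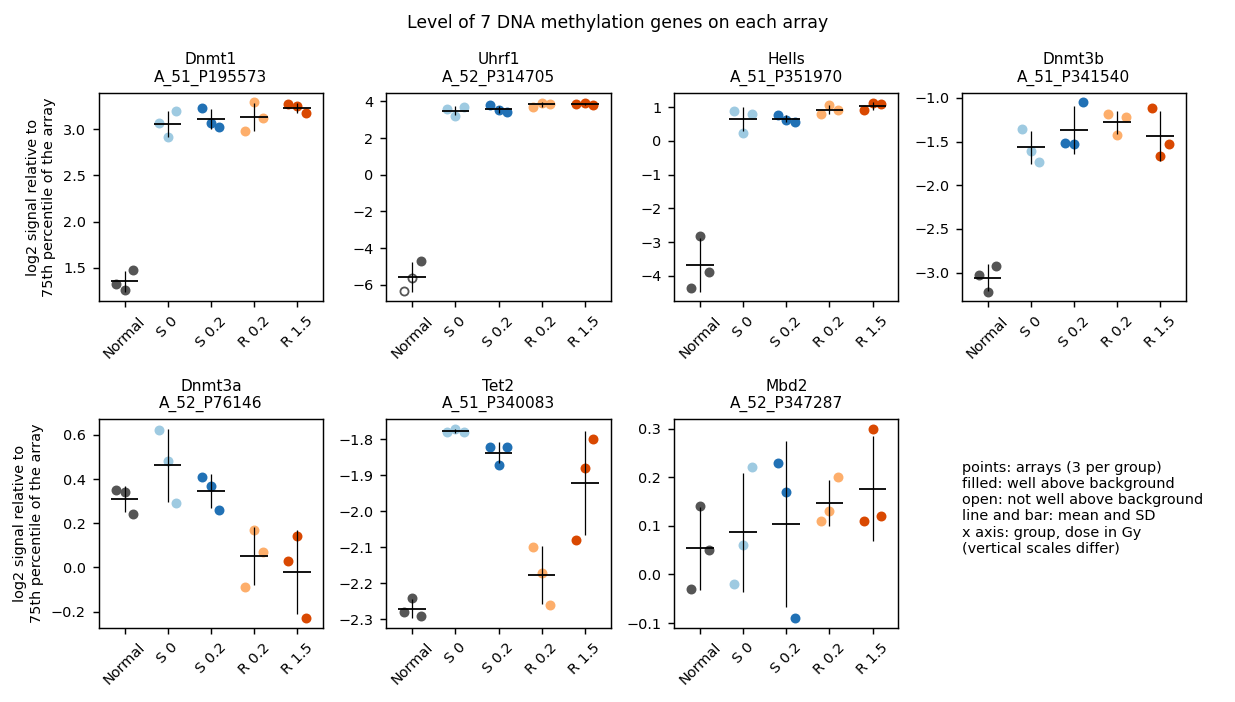
Level of the 7 measured genes on each of the 15 arrays, by group (S and R types, dose in Gy), as log2 signal less the array's 75th percentile, on the brightest probe of each gene. Points are arrays, open where the probe was not well above background, and lines and bars are mean and SD of 3 arrays. In Dnmt1, Uhrf1, Hells and Dnmt3b every tumour lies above every normal cerebellum. R-type tumours lie lower than S-type tumours in Dnmt3a and, at 0.2 Gy, in Tet2.

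In 4 of the 7 genes (Dnmt1, Uhrf1, Hells and Dnmt3b) the values of tumours and normal cerebella did not overlap, against 65.6% of all tested genes. Uhrf1 is in this count although it needed tumour arrays to pass the filter on background. Set against normal cerebellum one group at a time, these 4 genes were higher in all 4 tumour groups. These comparisons share the same 3 normal arrays, and 74.3%, 73.9%, 74.2% and 74.6% of all genes were called in the groups with rising dose, the S-type groups first. For Dnmt1 the 4 changes were 1.70, 1.75, 1.78 and 1.88 in that order. For Uhrf1, with normal arrays near background, the fitted values were 9.08, 9.15, 9.41 and 9.45. They were for Hells 4.34, 4.35, 4.61 and 4.73, and for Dnmt3b 1.49, 1.69, 1.77 and 1.62.

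Proliferation markers moved in the same direction. All 14 genes of that list were higher in tumours, with a median change of 8.14, where 43.5% of all tested genes were higher. On the tested probe 6 of the 14 were not well above background in any normal cerebellum. These passed the filter on background only through the tumours, so the filter shaped the count. With these 6 at their bounds the median was 7.44. The mean level of the list was −4.68 to −4.19 in normal cerebella, 2.85 to 3.44 in S-type and 3.16 to 3.45 in R-type tumours. Among them were Mki67 (9.95, adjusted p = 2.02e-11), a marker of cycling cells, and Mcm2 (4.65, limma adjusted p = 1.89e-10), part of the replicative helicase. The part of this difference in the changes of the maintenance genes was not tested. Within the 12 tumours, after the mean of each type was taken away, Dnmt1 correlated with Pcna at r = 0.97, with Mki67 at 0.91, with Top2a at 0.86 and with Mcm2 at 0.60. For Uhrf1 these values were 0.93, 0.83, 0.88 and 0.84, and for Hells 0.78, 0.70, 0.68 and 0.70. Mbd2, which is no maintenance gene, had 0.55, 0.49, 0.69 and 0.69 with the same markers, so that with Top2a it lay level with Hells. For Dnmt3b the values were −0.32, −0.26, −0.52 and −0.47. These are descriptions over 12 arrays, and every pair of genes shares the array, its scaling and its mix of cells.

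The 3 maintenance genes also varied together across the tumours. With type means removed, Dnmt1 and Uhrf1 correlated at 0.88, Uhrf1 and Hells at 0.86 and Dnmt1 and Hells at 0.73. Dnmt3b ran apart from them, at −0.33 with Dnmt1 and −0.30 with Uhrf1, and its lowest value was −0.73 with Mbd2. Dnmt3a and Tet2 had values between −0.32 and 0.27 with Dnmt1, Uhrf1, Hells and each other.

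Among 11450 genes well above background in all 12 tumours, the 3 most like each member were listed by the same measure. Nearest to Dnmt1 were Pcna (0.97), the sliding clamp of replication, Topbp1 (0.97), a replication and checkpoint protein, and Cenpb (0.96), a centromere protein. Nearest to Uhrf1 were Fancl (0.97), a DNA crosslink repair ligase, Ncl (0.97), nucleolin, and Mcm3 (0.97), a helicase subunit. Nearest to Hells were Dna2 (0.94), a nuclease and helicase, Gja4 (0.94), a gap junction protein, and Cep83 (0.94), a centriole protein. The nearest genes of Dnmt3b were Pycard (0.94), Nek6 (0.92) and Vps45 (0.92), and those of Mbd2 were Asnsd1 (0.93), Serinc3 (0.92) and Eid2 (0.91). For Tet2 they were Fbxl20 (0.91), Skil (0.88) and Mier2 (0.85), and for the brightest Dnmt3a probe Tgs1 (0.86), Dnajc2 (0.85) and Luzp1 (0.85). The likeness of Tet2 and Fbxl20 lay in the R-type tumours, at r = 0.95 over 6 of them and 0.30 over the 6 S-type tumours.

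Tet2, the oxidising eraser, had a smaller change, and the tumour types differed in it. Its level on probe A_51_P340083 was −2.28, −2.24 and −2.29 in normal cerebellum. It was −1.78, −1.77 and −1.78 in S-type tumours at 0 Gy and −1.82, −1.87 and −1.82 at 0.2 Gy. In R-type tumours it was −2.10, −2.17 and −2.26 at 0.2 Gy and −2.08, −1.88 and −1.80 at 1.5 Gy. All 6 S-type tumours were above the normal samples, and 1 of the R-type tumours at 0.2 Gy lay among them.

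Over all tumours Tet2 was 1.27-fold higher than in normal cerebellum (log2 change 0.34, SE 0.0611, limma adjusted p = 0.000233). Without scaling between arrays, which moved the median change of all genes from 0.136 to −0.039, the change was 0.17 and was not called (limma adjusted p = 0.139). By group, against the shared normal arrays, it was 0.49 and 0.43 in the S-type groups at 0 and 0.2 Gy, 0.09 in R-type at 0.2 Gy (limma adjusted p = 0.288) and 0.35 in R-type at 1.5 Gy (limma adjusted p = 0.00135). The last of these was lost without scaling (0.05, limma adjusted p = 0.73) and with the mean over both probes (0.20, limma adjusted p = 0.0523). The difference between the types was tested directly and was −0.24, R-type minus S-type (SE 0.0546, limma adjusted p = 0.0104), with overlapping values.

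A second Tet2 probe, A_52_P502083, separated the types further. Normal cerebellum had −3.54, −3.67 and −3.70. S-type tumours had −2.74, −3.09 and −2.94 at 0 Gy and −3.12, −3.25 and −3.18 at 0.2 Gy, whereas R-type tumours had −3.52, −3.72 and −3.96 at 0.2 Gy and −3.57, −3.58 and −3.62 at 1.5 Gy. No R-type tumour reached an S-type tumour, and the R-type tumours lay around the normal values.

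On this probe the change between types was −0.61 (SE 0.0815, limma adjusted p = 0.000603 over 28520 probes, of which 22% were called). The S-type groups were higher than normal cerebellum by 0.71 and 0.46, both called. The R-type groups differed from it by −0.10 and 0.05, neither called, though without scaling the first was −0.37 and called as lower (limma adjusted p = 0.0187). Over all tumours the change was 0.28 (limma adjusted p = 0.0137, with 79.6% of probes called). That call was lost without normal cerebellum 2 (0.26, limma adjusted p = 0.0553), without normal cerebellum 3 (0.25, limma adjusted p = 0.0641) and without scaling (0.10, limma adjusted p = 0.356). The 2 probes agreed in direction between the types, but the size differed: their difference within each array was 1.61 in R-type and 1.25 in S-type tumours, and the gap of 0.37 was tested with a two-sided exact permutation test (p = 0.00216, the smallest that 6 against 6 allows, adjusted over 10 such tests 0.00722).

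Between the tumour types 2 of the 7 genes, Tet2 and Dnmt3a on its brightest probe, were lower in R-type tumours and none was higher. Among all tested genes 21% were called, 10.9% as higher and 10.1% as lower. The split of all calls depended on the scaling: 52% of them were higher in R-type tumours here, 67.6% after normexp background correction and 9.04% without scaling, where the median of all genes moved from 0.021 to −0.199. Tet2 on both probes and the brightest Dnmt3a probe kept their direction and their call under each scaling tried. The differences of Dnmt1 (0.10, 95% interval −0.06 to 0.26), Dnmt3b (0.11, −0.16 to 0.37), Hells (0.32, −0.15 to 0.79), Uhrf1 (0.32, −0.16 to 0.79) and Mbd2 (0.07, −0.09 to 0.22) were not called, with adjusted p between 0.308 and 0.556. The spread in the fit took in the normal arrays, whose SD was 0.82 for Uhrf1 and 0.79 for Hells. Within tumour groups these SDs were 0.06 to 0.26 and 0.11 to 0.35. Among the alternatives the lowest limma adjusted p was 0.0558 for Uhrf1 on its brightest probe and 0.0841 for Hells. The second Uhrf1 probe gave 0.36 (limma adjusted p = 0.0973), which passed under 2 alternatives, normexp background correction (0.37, limma adjusted p = 0.018) and a fit of the compared groups only (0.36, limma adjusted p = 0.0481).

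Only 0.2 Gy was given in both types, so the types were also compared at that dose. There 1 of 7 genes was called, Tet2, against 4.77% of all genes. The change was −0.34 (SE 0.0773, limma adjusted p = 0.0326), and the second probe gave −0.55 (limma adjusted p = 0.0215); the values did not overlap on either probe. Both calls rested on few arrays. For the first probe the call was lost when any 1 of MB4 to MB9 was left out (changes of −0.38 to −0.30, adjusted p from 0.0562 without MB7 to 0.132 without MB9) and with slide as a block (limma adjusted p = 0.0627), no filter on dim probes (limma adjusted p = 0.0833), a trended robust spread (limma adjusted p = 0.0615) or only the compared groups (limma adjusted p = 0.0921). For the second it was lost without MB4, MB5, MB6 or MB9, with changes of −0.52, −0.59, −0.55 and −0.44, and with slide as a block (limma adjusted p = 0.0699), normexp background correction (−0.25, limma adjusted p = 0.0928) or only the compared groups (limma adjusted p = 0.0949).

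Each of the 4 slides held both types. Within slides the R-type minus S-type difference of Tet2 ran from −0.43 to −0.12 on the first probe and from −0.97 to −0.44 on the second, below 0 on all 4. For the brightest Dnmt3a probe it ran from −0.57 to −0.14. Hells, not called between types, ran from 0.16 to 0.51 and Dnmt3b, also not called, from 0.16 to 0.22, above 0 on all 4 slides. The second Uhrf1 probe ran from 0.01 to 0.56, again above 0 on all 4. Dnmt1 and the first Uhrf1 probe were above 0 on 3 slides and Mbd2 on 2. In these differences dose, age and type vary together and cannot be told apart. The mean level of the 7 mature granule neuron markers was −2.29 to 0.22 in S-type and −3.03 to −1.98 in R-type tumours; of its genes Snap25 was called as lower (−0.80) and Cbln1 as higher (0.47) in R-type tumours. The mean level of the 4 choroid plexus markers was −4.79 to −0.58 in S-type and −5.49 to −4.51 in R-type tumours. Of these Kl was called as lower (−2.49, limma adjusted p = 0.0141) and was well above background in 6 S-type and 2 R-type tumours. The part of either list in the differences of Tet2 and Dnmt3a was not tested.

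**Figure D2:**
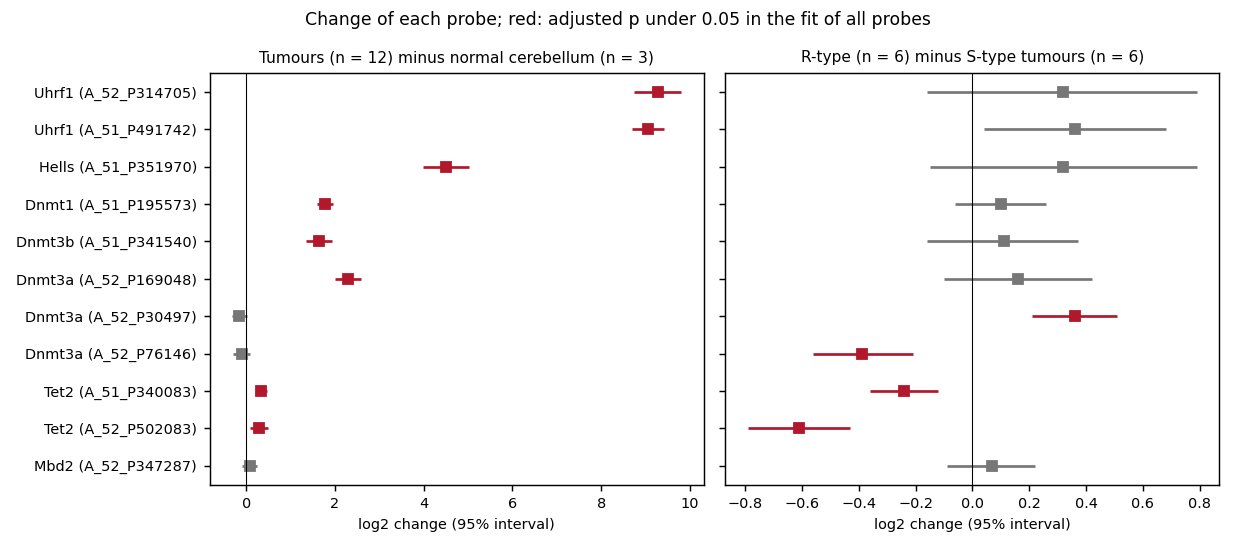
Log2 change of each of the 11 probes with its 95% interval, for tumours minus normal cerebellum and for R-type minus S-type tumours, in the fit of all probes. Red marks an adjusted p under 0.05. Both Uhrf1 probes needed tumour arrays to pass the filter on background. Their change from normal cerebellum is therefore only a bound, and their red marks there are no test. The maintenance genes stand to the right of 0 in tumours and cross 0 or miss the threshold between types, the 2 Tet2 probes lie below 0 between types, and the 3 Dnmt3a probes disagree in both comparisons.

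Dnmt3a, the de novo methyltransferase that is prominent in neurons, was measured by 3 probes that did not give 1 answer. Probe A_52_P76146, the brightest, carries a different transcript accession from the other 2, and where the probes lie along the transcripts is not given in the sources used here. RefSeq lists 3 starts of Dnmt3a in the table, 2 of them 180 bases apart and the last 84764 bases further along the gene than the first. The first and the last window are shown because transcripts with different starts are one way in which probes of a gene can differ; which transcript each probe reads was not tested. No letters are marked, since neither window held a match.
Dnmt3a, first start, chr12:3806730-3807029, + strand: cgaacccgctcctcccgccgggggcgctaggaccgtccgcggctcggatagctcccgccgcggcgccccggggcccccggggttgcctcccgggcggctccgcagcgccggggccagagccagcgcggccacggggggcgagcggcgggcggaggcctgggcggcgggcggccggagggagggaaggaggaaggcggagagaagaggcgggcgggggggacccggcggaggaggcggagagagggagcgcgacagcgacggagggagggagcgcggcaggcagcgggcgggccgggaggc
Dnmt3a, last start, chr12:3891494-3891793, + strand: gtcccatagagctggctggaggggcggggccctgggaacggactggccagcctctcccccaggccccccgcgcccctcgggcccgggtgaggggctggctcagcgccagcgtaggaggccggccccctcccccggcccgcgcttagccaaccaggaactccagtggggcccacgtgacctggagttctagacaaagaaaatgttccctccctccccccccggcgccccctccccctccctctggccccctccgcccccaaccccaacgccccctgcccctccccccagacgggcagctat

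The first Dnmt3a window held 46 CpG sites, more than 98.4% of all windows, and the last held 18.

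On probe A_52_P76146 normal cerebellum had levels of 0.35, 0.34 and 0.24. S-type tumours had 0.62, 0.48 and 0.29 at 0 Gy and 0.41, 0.37 and 0.26 at 0.2 Gy, and R-type tumours had −0.09, 0.17 and 0.07 at 0.2 Gy and 0.03, 0.14 and −0.23 at 1.5 Gy. The S-type tumours overlapped the normal samples, and all 6 R-type tumours lay below every other array. Tumours as a whole did not pass the test against normal cerebellum (−0.10, 95% interval −0.30 to 0.09, limma adjusted p = 0.311), but did so without scaling (−0.28, limma adjusted p = 0.00788).

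Between types this probe gave −0.39 (SE 0.0804, limma adjusted p = 0.00652), and the values did not overlap, as in 9.34% of all tested genes. It was the 1 gene of 7 without overlap between types. At 0.2 Gy alone the change was −0.29 and was not called (limma adjusted p = 0.157), whereas without scaling it was −0.55 and called (limma adjusted p = 0.00851). Against normal cerebellum the R-type groups gave −0.26 at 0.2 Gy (limma adjusted p = 0.0541) and −0.33 at 1.5 Gy (limma adjusted p = 0.0191). The second of these calls was lost without normal cerebellum 1 (−0.31, limma adjusted p = 0.0554), normal cerebellum 2 (−0.32, limma adjusted p = 0.0529) or MB12 (−0.23, limma adjusted p = 0.09). The first lay near the threshold and passed it under 7 alternatives in the same direction. These were no scaling (−0.53, limma adjusted p = 0.000505), the fit without MB8 (−0.32, limma adjusted p = 0.0394) and, with changes of −0.30 to −0.26 and adjusted p between 0.0318 and 0.0483, quantile normalization, the 75th percentile of detected probes, a filter of all arrays, a trended robust spread and only the compared groups.

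Probe A_52_P30497 ran the other way between types. Normal cerebellum had −0.57, −0.62 and −0.57. S-type tumours had −0.97, −0.74 and −0.96 at 0 Gy and −0.95, −0.92 and −1.02 at 0.2 Gy, and R-type tumours had −0.64, −0.68 and −0.49 at 0.2 Gy and −0.68, −0.35 and −0.53 at 1.5 Gy. All S-type tumours were below the normal samples and below all R-type tumours, while the R-type tumours lay around the normal samples. The change between types was 0.36 (SE 0.0682, limma adjusted p = 0.00357) and was positive within all 4 slides, from 0.20 to 0.45. Without scaling it was 0.14 and not called (limma adjusted p = 0.283). At 0.2 Gy alone it was 0.35 (limma adjusted p = 0.0554), which passed with quantile normalization (limma adjusted p = 0.0346), a filter of all arrays (limma adjusted p = 0.041) or a trended robust spread (limma adjusted p = 0.0494).

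Against the shared normal arrays this probe gave −0.31 in S-type at 0 Gy (limma adjusted p = 0.0121) and −0.37 in S-type at 0.2 Gy (limma adjusted p = 0.00381), and −0.02 and 0.07 in the R-type groups. For all tumours together it gave −0.16 (limma adjusted p = 0.0744), which passed when MB2 (−0.18, limma adjusted p = 0.0362) or MB11 (−0.18, limma adjusted p = 0.0328) was left out, without scaling (−0.33, limma adjusted p = 0.0147) and with the 75th percentile of detected probes (−0.19, limma adjusted p = 0.0438).

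Probe A_52_P169048 of the same transcript accession separated tumours from normal cerebellum. It read −3.25, −3.29 and −3.12 in normal cerebellum. The S-type readings were −0.68, −1.53 and −1.16 at 0 Gy and −0.87, −0.84 and −0.94 at 0.2 Gy, and the R-type readings were −0.87, −0.94 and −1.02 at 0.2 Gy and −0.76, −0.58 and −0.91 at 1.5 Gy. Every tumour exceeded every normal sample, and the lowest tumour was again MB2. The change was 2.30 (SE 0.133, limma adjusted p = 7.78e-09), or 4.91-fold. Between types it was 0.16 (95% interval −0.10 to 0.42, limma adjusted p = 0.366), and without MB1 it was 0.27 (limma adjusted p = 0.0451).

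The disagreement was measured on differences between probes within each array, where the scaling of the array cancels. Between types, A_52_P76146 minus A_52_P30497 was 0.58 in R-type and 1.33 in S-type tumours, a gap of −0.75. Against A_52_P169048 the gap between types was −0.55, with 0.86 in R-type and 1.41 in S-type tumours. Both had p = 0.00216 (two-sided exact permutation test, the smallest that 6 against 6 allows) and 0.00722 after adjustment over 10 such tests. For the first pair this p was fixed by values already given, since the types did not overlap on either probe and ran opposite ways. Between tumours and normal cerebella, A_52_P76146 minus A_52_P169048 was lower in tumours by a gap of −2.40 and A_52_P30497 minus A_52_P169048 by a gap of −2.45. Each had p = 0.0044, the smallest that 12 against 3 allows in the two-sided exact permutation test, and 0.00879 after adjustment. These p-values were fixed by the shift of A_52_P169048 already given. The comparison was added after the probes were seen to differ, so its p-values are no separate evidence that they do. The mean over the 3 probes would report a Dnmt3a change of 0.68 in tumours (limma adjusted p = 2.58e-06) and 0.04 between types (limma adjusted p = 0.665), values that no single probe shows. For this gene each result holds for its probe only.

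**Figure D3:**
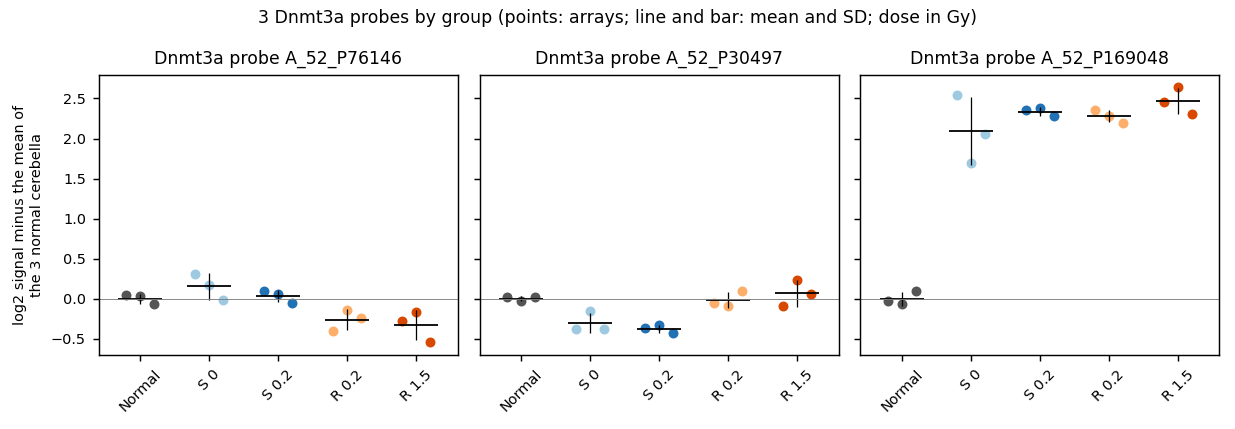
Log2 signal of the 3 Dnmt3a probes on each array minus that probe's mean over the 3 normal cerebella, by group (dose in Gy). Points are arrays, and lines and bars are mean and SD of 3 arrays. R-type tumours are below S-type on A_52_P76146 and above them on A_52_P30497, and all tumours are above normal cerebellum on A_52_P169048.

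The dose comparisons gave no call for any of the 7 genes. Within each type the ages at the 2 doses did not overlap, so dose and age cannot be told apart here. Within S-type tumours, 0.2 Gy against 0 Gy gave changes between −0.12 for the brightest Dnmt3a probe and 0.20 for Dnmt3b, and 0.00462% of all genes (1 gene) were called. Within R-type tumours, 1.5 Gy against 0.2 Gy gave changes between −0.16 for Dnmt3b and 0.25 for Tet2, and 0.0693% of all genes (15 genes) were called. The largest of these, Tet2 in R-type tumours, had an unadjusted p of 0.00667 and an adjusted p of 0.59 in limma, with a 95% interval of 0.09 to 0.42; its values at the 2 doses did not overlap. Each group held 3 arrays, and the intervals were widest for Uhrf1 (95% interval −0.60 to 0.74 in S-type and −0.63 to 0.71 in R-type tumours) and Hells (−0.65 to 0.68 and −0.55 to 0.78). The fit used 1 spread per gene over all 5 groups. That spread took in the normal arrays, whose SD was 0.82 for Uhrf1 and 0.79 for Hells. Within tumour groups the SD was 0.06 to 0.26 for Uhrf1 and 0.11 to 0.35 for Hells.

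Other genes of the methylation machinery were examined as lists, whose counts are to be read against all tested genes: 43.5% were higher and 35.4% lower in tumours, and 10.9% were higher and 10.1% lower in R-type than in S-type tumours. Of 13 tested writer partners and maintenance factors, 10 were higher and 1 lower in tumours, with a median change of 1.34. Cdca7, which activates the remodeller Hells, rose by 7.52 (limma adjusted p = 8.86e-15), and Pcna, which tethers Dnmt1 to the replication fork, by 2.82. Zfp57, which protects imprinted methylation, was not well above background in any normal cerebellum and was at least 6.6-fold higher in tumours (means −2.81 and −7.45). Trim28, its partner, rose by 1.47, the histone methyltransferase Ehmt1 by 1.34 and the demethylase Kdm1a by 1.74. Usp7, which stabilises Uhrf1 and Dnmt1, differed by −0.01 (limma adjusted p = 0.954), and the 1 lower gene was Zbtb24 (−0.33). Between types Nsd1, a writer of the histone mark that guides Dnmt3a, was lower in R-type tumours by −0.60 (adjusted p = 0.000303), and Pcna (0.30) and Ehmt1 (0.16) were higher.

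Of 15 tested TET partners and base excision genes, 11 were higher and 3 lower in tumours (median 1.18). The uracil glycosylase Ung rose by 3.97 and the endonuclease Apex1 by 3.10. Idh2, which makes the TET cofactor, rose by 3.02, and Tdg, the glycosylase that excises oxidised methylcytosine, by 2.07. Xrcc1 (1.18) and Parp1 (1.45), which serve the repair of the resulting breaks, were also higher. Between types Gadd45g, a stress gene linked to demethylation, was lower in R-type tumours by −1.09 (limma adjusted p = 6.61e-05) and Gadd45b by −0.32, while Ung (0.41) and Smug1 (0.28) were higher.

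Readers of methylated DNA were split. Of 7 tested, 4 were higher and 3 lower in tumours (median 0.19). Among the lower genes were Zbtb4 (−3.16) and Zbtb38 (−2.50), zinc finger proteins that bind methylated DNA. Zbtb33, known as Kaiso, was higher by 0.92, Mbd6 by 0.73 and Mbd3, a NuRD subunit, by 0.57. Zbtb38 was well above background in 3 of 3 normal cerebella, 4 of 6 S-type and 1 of 6 R-type tumours. Its measured difference between types (−0.52, limma adjusted p = 0.00368) and that from normal tissue therefore rest largely on dim arrays.

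The NuRD complex, which Mbd2 recruits, had 8 higher and 1 lower of 10 tested genes (median 1.09), led by Hdac2 (2.02), Mta2 (1.78) and Mta1 (1.53). Gatad2b was the lower gene (−0.33), and it was lower again in R-type against S-type tumours (−0.44), as was the remodeller Chd4 (−0.35), whereas Mta2 was higher (0.19). Of 4 tested binders of unmethylated CpG sites 3 were higher in tumours, among them Kdm2b (1.30) and Fbxl19 (1.15), and none was called between types. Of 10 methyl donor and folate cycle genes 8 were higher and 1 lower (median 1.75), where 43.5% and 35.4% of all genes were, with Tyms (5.66) and Shmt1 (4.38) at the top and Mat2b (−0.73) lower. In that list 3 genes were higher in R-type tumours, among them the folate cycle enzymes Mthfd1 (0.32) and Shmt2 (0.49), and none was lower, against 10.9% and 10.1% of all genes.

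Germline genes that promoter methylation is known to keep silent were mostly dim. Only 4 of 12 passed the filter on background, and 3 of these were lower and 1 higher in tumours, a count that the filter shaped. Sycp1, a meiotic chromosome protein, was at least 28.7-fold lower in tumours, where it was not well above background on any array; it entered the fit only through the normal samples. Brdt, measured on all 15 arrays, was lower in tumours by −1.65 and lower in R-type than in S-type tumours by −1.16 (limma adjusted p = 0.000823). Ddx4 was well above background in all 3 normal cerebella, in 3 of 6 S-type tumours and in no R-type tumour. Its measured means were −4.86 in normal tissue, −5.24 in S-type and −6.37 in R-type tumours, so the difference of −0.95 between tumours and normal tissue rests largely on dim arrays, and between types it was at least 1.04-fold lower in R-type tumours. Tex101 was well above background in all 6 S-type tumours and in no other sample. It entered the fit only through those tumours, so its differences were fixed by the filter and are given with no test: its mean was −3.49 in S-type and −5.54 in R-type tumours, at least 3.48-fold lower in the latter. DNA methylation itself was not measured.

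**Figure D4:**
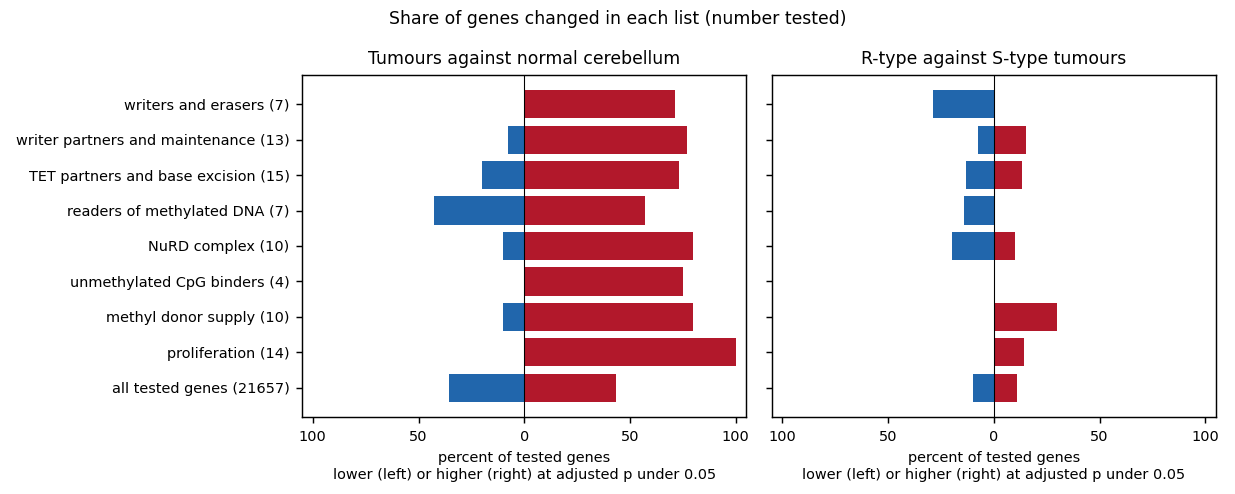
Share of the tested genes of each list that were higher (right, red) or lower (left, blue) at an adjusted p under 0.05, for tumours against normal cerebellum and for R-type against S-type tumours, with the number tested in brackets. The last bar is the share over all 21657 tested genes, of which 43.5% were higher and 35.4% lower in tumours. Proliferation genes were all higher in tumours, a count that the filter on background shaped in part, and readers of methylated DNA went both ways.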

How the data were processed

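RNA of 15 mouse samples (5 groups of 3) was measured on one-colour (Cy3) Agilent arrays. Each scanner file held spot intensities, which the authors made, per the file headers, by subtracting background and detrending, with no scaling across arrays. The submitters' processing notes name Agilent Feature Extraction 9.5.1. The deposited series table held log2 values and served as an alternative input. Array-to-array differences in it matched those of the log2 signals (r from 0.99991 to 0.99999), and its MB1 and MB2 columns summed to 0, so the table appears centred, on the log2 scale, at the mean of that pair; the scale before that step stays unknown. The medians of its normal columns were 0.00239, 0.0819 and 0.089, and those of MB1 to MB12 were 0.0506, −0.0506, 0.106, 0.0682, −0.0795, 0.0524, 0.0702, 0.13, 0.127, 0.0908, 0.151 and 0.0989.

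The log2 signal minus the 75th percentile of the array was used. Control spots and outlier spots were dropped, which left out 76 probes. Of 41174 probes 26382 carried a RefSeq accession and 24844 got 1 gene symbol through the RefSeq gene table (GRCm38.p6), used here for names; the windows around gene starts and their coordinates came from RefSeq's promoter sequences of that build. Per name the brightest probe was taken, and 21657 names (13424 with a symbol) passed the filter of a signal well above background on 3 or more arrays. A fit of all 28520 probes that met this filter was added after the Dnmt3a probes were seen to differ, as was the comparison of probes within arrays. The model held 1 mean per group, fitted by limma 3.58.1 (R 4.3.3, 10 residual and 1.71 prior degrees of freedom) and adjusted by Benjamini-Hochberg at 0.05. Tables, permutation tests and motif searches used Python 3.11.15, pandas 2.3.3, numpy 2.4.6 and scipy 1.17.1.

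Where a probe was never well above background in a group, and for Uhrf1 where 2 of 3 arrays were not, the fold is a bound, with each dim array at the higher of its own value and its lowest signal well above background. The gene set and the lists were chosen with earlier results of these data known. Genes named were all members, up to 6 genes per list with the smallest adjusted p between tumours and normal cerebella and up to 4 between types, the 3 most alike per member, and a few proliferation markers; Usp7 and single lower genes were named after their values were seen. Some single genes of the related lists are not reported here. Alternatives were the scaling, background correction, series table, filter, probe rule, slide, spread model, samples in the fit and each array left out. The number of arrays limits the precision. Each array was a separate sample, and nothing says whether littermates were used. The titles of normal cerebella and S-type tumours at 0 Gy share numbers 1 to 3; deviations of same-numbered samples correlated at 0.0453, −0.0237 and 0.000904, so the numbers were not taken as pairs.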

Additional observations from a re-analysis of the deposited data

Results flagged for a closer look

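MB2 was the highest of the 6 S-type tumours on Dnmt3a probe A_52_P30497, at −0.74, while the other S-type tumours lay between −1.02 and −0.92, a gap wide for the range of 6 samples by Dixon's rule. In all 22 groups of 6 (11 probes, both types) were looked at in this way, and chance alone flags about 1 group in 20. MB2 was also the lowest tumour for Dnmt1, Uhrf1, Hells and Dnmt3a probe A_52_P169048. Without MB2 the S-type tumours remain below all R-type tumours on A_52_P30497.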

How the results depend on the processing

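The calls of Dnmt1, Uhrf1, Hells and Dnmt3b against normal cerebellum kept their direction and side of the threshold under each alternative tried, with changes of 1.6 to 1.84, 7.59 to 9.69, 3.85 to 4.94 and 1.35 to 1.71; with a filter of all 15 arrays the main Uhrf1 probe has no value. With the mean over the probes of a gene, Dnmt3a turned sign in tumours (0.68), between types (0.04), and in R-type against normal at 0.2 Gy (0.67) and 1.5 Gy (0.73), because its probes differ. The count of genes called between types at 0.2 Gy was 1033, against 2673 without scaling, 541 without a filter, 454 with slide as a block, 456 with only the compared groups, and 295 to 929 with 1 array left out. Within S-type tumours the 1 call became 2 with quantile normalization, 3 with the series table or the mean over probes, 0 without scaling, without a filter, with the 75th percentile of detected probes, with slide as a block or with only the compared groups, and 0 to 17 with 1 array left out (17 without MB1). Within R-type tumours the 15 calls became 0 with only the compared groups and 9 to 159 with 1 array left out (159 without MB8). Why these counts moved was not tested. Of 1167 alternative values of the 7 genes, 16 lost and 11 gained a call in the same direction. A further 4 turned sign with a call in at least 1 of the 2 fits. These are those of Dnmt3a, of which 1 lost and 2 gained a call. Another 42 values turned sign with no call in either fit. Of 627 for the further probes, 12 lost and 11 gained a call, and 19 turned sign with no call in either fit. As a paired analysis, the replicate block over normal cerebella and S-type tumours at 0 Gy called 14304 genes against 16082; Dnmt1 stayed at 1.70 (limma adjusted p = 0.00147), and of the members' calls it ended that of Dnmt3a probe A_52_P30497 (−0.31, limma adjusted p = 0.0917). Signal over background limits Uhrf1 in normal cerebellum to a bound, so its kept calls are no separate support for the size of its change.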
